A study of Mus musculus with 6 samples.

Results

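The ephrin and semaphorin guidance genes are the ephrins and their Eph receptors together with the semaphorins and their plexin and neuropilin receptors. Members were taken by symbol: Epha, Ephb, Efna or Efnb with a number, Sema with a number and a letter, Plxn with a letter and an optional number, and Nrp1 and Nrp2. This gave 53 of the 24982 genes listed, of which 28 encode ligands (8 ephrins and 20 semaphorins) and 25 encode receptors (14 Eph receptors, 9 plexins and 2 neuropilins).

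The samples were 2 keratinocyte lines from the skin of neonatal C57BL/6 mice, neither of them treated further. KSFM-Ca2+ cells were derived and kept in a keratinocyte serum-free medium low in calcium, and DKSFM cells are descendants of these cells that were adapted to and grown in the defined medium DKSFM, which holds more calcium. Each line gave 3 RNA-seq libraries, which are not stated to come from separate cultures, so that p-values measure the spread between libraries, which may be technical. As models the lines are limited in that the DKSFM cells are the survivors of a selection in the new medium, that the study described near-tetraploid chromosome sets in KSFM-Ca2+ cells, and that medium, adaptation and time in culture cannot be told apart.

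Ephrins are membrane-bound ligands, the A class held by a lipid anchor and the B class by a transmembrane segment, and they act on Eph receptor tyrosine kinases of neighbouring cells, with signals running into both cells. Semaphorins are secreted or membrane-bound proteins that act through plexins, and most secreted class 3 semaphorins need a neuropilin as the binding partner of a plexin A. Both systems were first studied in growing axons and blood vessels, and in epithelia they take part in cell sorting, adhesion, migration and wound closure.

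The value given for each gene is the mean read coverage per base, a scale that is already per length, normalized between libraries. Total coverage over all genes before normalization was 1601676, 1238411 and 1057750 in KSFM-Ca2+ replicates 1 to 3 and 1174348, 1239438 and 1170675 in DKSFM replicates 1 to 3. Values were listed to 1 decimal, so 0.1 is the smallest that could be seen. A gene was tested by limma on log2(normalized coverage + 0.1) when at least 3 libraries reached 0.5, and it was called when the adjusted p was under 0.01 and the change at least 2-fold. Log2 fold changes are DKSFM over KSFM-Ca2+ and understate the change of genes with low coverage.

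Both lines carried the markers of basal keratinocytes. All 9 markers of that list were well above the rounding step in every library, and their summed normalized coverage was 19742, 20175 and 19797 in the KSFM-Ca2+ libraries and 45994, 41999 and 46363 in the DKSFM libraries, most of it Krt14 and Krt5. Other markers of the list fell, Lamb3 from a mean of 611 to 300 (log2 fold change -1.03, called lower) and Itgb4 from 324 to 194 (log2 fold change -0.74, not called). Trp63, the master regulator of stratified epithelia, was at 416, 414 and 394 in KSFM-Ca2+ and at 437, 443 and 461 in DKSFM. Krt15, a keratin of basal cells, was at 17.4, 13.7 and 10 in KSFM-Ca2+ and at 407, 382 and 398 in DKSFM, so the keratinocyte markers themselves differed between the lines.

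Markers of other cell types of the skin were read for the whole of each list. Of 7 fibroblast markers, 6 were at 0 in every library, among them Col1a1, Col3a1 and Dcn, and the most abundant, Pdgfra, gave the whole sum of 1.15, 0.898 and 1.31 in KSFM-Ca2+ and 2.36, 2.12 and 2.25 in DKSFM. Of 8 endothelial markers, Cdh5, Tie1, Vwf and Emcn were at 0 throughout, and the summed level, led by Pecam1, was 5.0, 5.49 and 5.36 in KSFM-Ca2+ and 8.90, 8.88 and 7.92 in DKSFM. Pecam1 was called higher, from a mean of 2.80 to 7.65 (log2 fold change 1.42, adjusted p = 4.0e-06 by limma). Flt1 was called lower, from a mean of 2.16 to 0.489 (log2 fold change -1.94, adjusted p = 8.4e-06 by limma). Tyr and Dct were the 2 of 6 melanocyte markers at 0, and the list summed to 4.15, 3.99 and 4.65 in KSFM-Ca2+ and 17.5, 18.9 and 18.5 in DKSFM, most of it Mitf, which is not restricted to melanocytes. Mitf was called higher, from a mean of 3.55 to 17.9 (log2 fold change 2.31). Sox10, S100b, Elavl4 and Snap25 were the 4 of 8 Schwann cell and neuron markers at or under 0.1 before normalization, and the list summed to 74.2, 74.0 and 74.7 in KSFM-Ca2+ and 54.3, 51.5 and 53.4 in DKSFM, most of it Mbp. Of 7 immune markers, 6 were at or under 0.1 throughout before normalization, and the list summed to 1.23, 1.60 and 1.91 in KSFM-Ca2+, nearly all of it Cd74, and to 0.107, 0.303 and 0.107 in DKSFM. Cd74 was called lower, but it reached 0.5 in KSFM-Ca2+ libraries alone and so could be called lower only. Where these sums differ between the lines, their part in the results below was not tested. In bulk libraries fewer cells of a type and less RNA per cell cannot be told apart.

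The guidance genes were divided by role. In DKSFM cells 5 of the 8 ephrin genes rose and no tested ephrin fell, 5 of the 7 tested Eph receptors rose and Epha2 fell, 4 of the 12 tested semaphorins rose, Plxna3 was the only plexin called, and both neuropilins fell. Of the 53 members, 13 were listed at 0 in every library, 5 were above 0 but too low to be tested, and 35 were tested by limma. Among the tested members 14 were called higher in DKSFM, where 13.3% of the 12450 genes tested over the whole table were called higher, and 4 were called lower, where 10.5% of all genes were. These shares of the tested members were 40.0% and 11.4%. Of the 35 tested members, 4 reached the level needed for testing in DKSFM libraries alone and so could be called higher only. Of these 4, 3 were called higher (Sema3d, Sema4f and Epha7). Plxna3 reached that level in KSFM-Ca2+ libraries alone and so could be called lower only. The genes tested over the whole table include others of that kind. Whether the members' shares differ from those of all genes was not tested. The median log2 fold change of the tested members was 0.77, beside 0.00 over all genes tested. An adjusted p under 0.01 without regard to size was reached by 30 of the 35 (85.7%), beside 72.5% of all genes tested, and the libraries of the lines did not overlap for 32 (91.4%), beside 83.2% of all genes tested.

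Ligands and receptors were counted apart, and a difference between the 2 groups was not tested. Of 20 tested ligand genes 9 were called higher and 0 lower, although 4 were lower at an adjusted p under 0.01 in limma, all by less than 2-fold. Of 15 tested receptor genes 5 were called higher and 4 lower. At an adjusted p under 0.01 without regard to size the receptors had 8 higher and 4 lower and the ligands 14 and 4. These were 80% of the tested receptors and 90% of the tested ligands, beside 72.5% of all genes tested. Under the alternative analyses 0 to 2 ligands were called lower. The median log2 fold change was 0.88 over the tested ligands and 0.51 over the tested receptors. A gene at 0 or near it in KSFM-Ca2+ entered the test only because it was high in DKSFM, which among the called genes holds for Sema3d, Sema4f and Epha7, and the reverse holds for Plxna3.

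**Figure D1:**
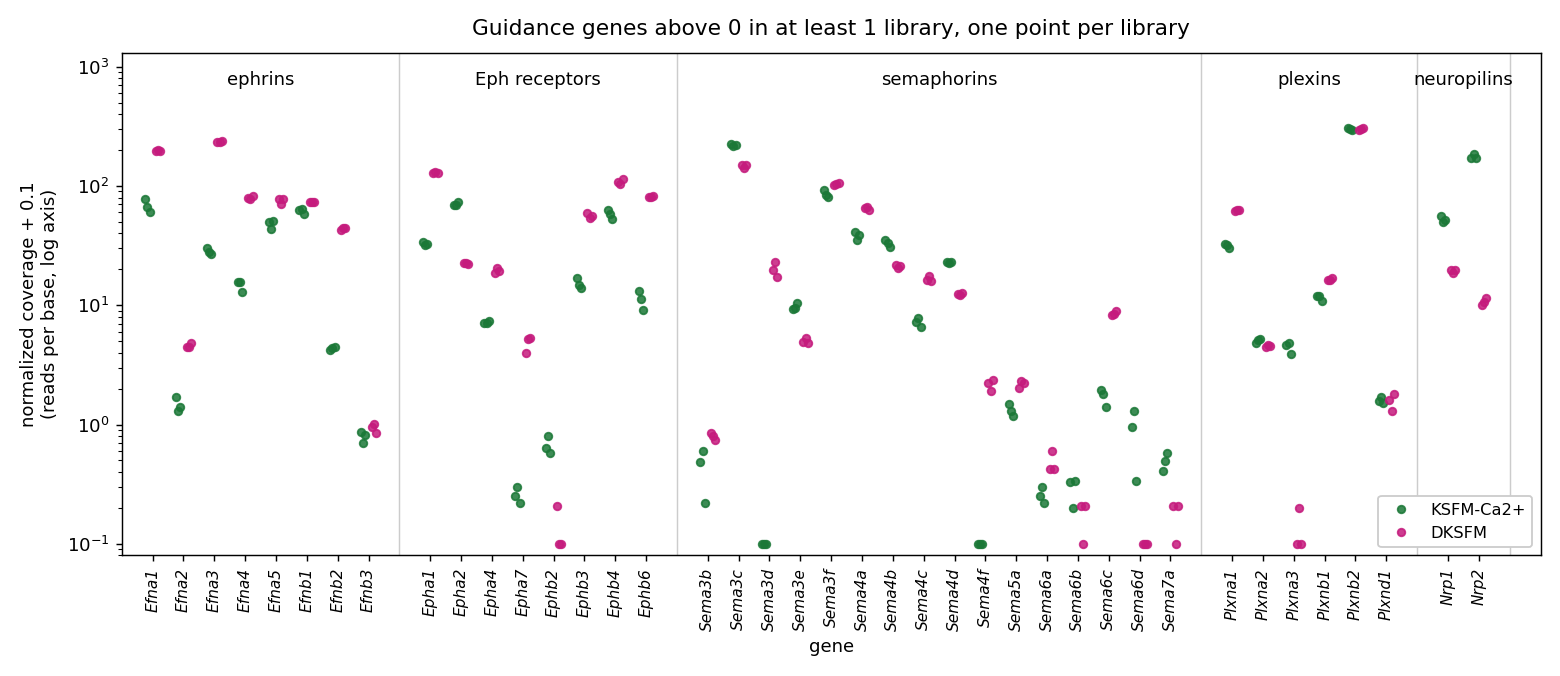
Normalized coverage + 0.1 on a log axis for each guidance gene above 0 in at least 1 library, ordered by role, with a green point for each of the 3 KSFM-Ca2+ libraries and a pink point for each of the 3 DKSFM libraries. Ephrins lie higher in DKSFM or close between the lines, both neuropilins lie lower in DKSFM, and the points at the bottom edge are values listed at 0.

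Among the A-class ephrins, the 3 neighbours on chromosome 3 carried most of the change. Efna1, Efna3 and Efna4 lie on the minus strand of chromosome 3 within 66.3 kb in GRCm38, Efna1 at chr3:89271733-89281142, Efna3 at chr3:89313899-89322965 and Efna4 at chr3:89333390-89338028. Normalized coverage of Efna3 was 30.3, 28.0 and 26.7 in the KSFM-Ca2+ libraries and 234, 233 and 237 in the DKSFM libraries. All DKSFM libraries lay far above all KSFM-Ca2+ libraries, and Efna3 became the most abundant ephrin in DKSFM, 8.27-fold higher than in KSFM-Ca2+ (log2 fold change 3.05 ± 0.05 (SE), adjusted p = 1.2e-09 by limma). Efna4 was at 15.6, 15.7 and 12.7 in KSFM-Ca2+ and at 79.3, 77.5 and 82.6 in DKSFM. This ligand also rose without overlap, by 5.44-fold (log2 fold change 2.44 ± 0.08 (SE), adjusted p = 4.7e-08). Efna1, a ligand bound with high affinity by Epha2, was at 77.3, 66.4 and 60.6 in KSFM-Ca2+ and at 195, 201 and 196 in DKSFM. It was the most abundant ephrin of the KSFM-Ca2+ cells and rose 2.90-fold, with its lowest DKSFM library above its highest KSFM-Ca2+ library (log2 fold change 1.54 ± 0.08 (SE), adjusted p = 4.8e-07).

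The stretch before the start of Efna3 and Efna4 is shown because these neighbours moved together, with the capital letters marking GGGCGG or its reverse complement. The sequences come from the RefSeq promoter table for GRCm38.p6, both from the minus strand written 5′ to 3′, and each ends before the more upstream of the RefSeq and GENCODE starts. Efna3 is chr3:89322966-89323189 and Efna4 is chr3:89338029-89338278. The stretch of Efna1 lies mostly within its annotated transcript and is not shown.
Efna3: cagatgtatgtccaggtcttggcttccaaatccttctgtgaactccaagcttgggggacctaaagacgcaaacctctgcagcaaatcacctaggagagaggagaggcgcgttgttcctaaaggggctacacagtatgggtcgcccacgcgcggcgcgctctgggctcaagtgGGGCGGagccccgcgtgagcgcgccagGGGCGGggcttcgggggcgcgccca
Efna4: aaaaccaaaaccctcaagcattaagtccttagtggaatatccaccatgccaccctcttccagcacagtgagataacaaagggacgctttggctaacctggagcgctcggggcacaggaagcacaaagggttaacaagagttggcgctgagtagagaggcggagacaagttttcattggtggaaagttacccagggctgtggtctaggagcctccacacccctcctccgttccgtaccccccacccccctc
In the 250 bases before the RefSeq start the Efna3 promoter held 3 copies of GGGCGG on either strand, the Efna1 promoter held 1 and the Efna4 promoter held 0. The number of CG pairs in these 250 bases was 19 for Efna3, 16 for Efna1 and 7 for Efna4, beside a median of 6 over 32536 promoters.

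Several genes around this ephrin cluster were higher in DKSFM as well. Within 100 kb on either side of the 3 genes lay 20 other tested genes, of which 6 were called higher and 1 lower. Thbs3, which is 1 of the 6, and Muc1, which was not called, reached 0.5 in DKSFM libraries alone and so could be called higher only, so this count is not set beside that of all genes. Thbs3 and Pbxip1, also called higher, had means of 0.400 and 0.393 in KSFM-Ca2+, near the floor, and 2.27 and 2.39 in DKSFM. Adam15, a membrane metalloprotease gene whose end lies next to the start of Efna4, rose from a mean of 41.1 to 124 (log2 fold change 1.59), and Zbtb7b, a transcription factor gene, rose from 84.9 to 204 (log2 fold change 1.27). Trim46 was the neighbour called lower, with a mean of 2.97 in KSFM-Ca2+ and 0.659 in DKSFM. Over the wider window of 10 Mb on either side the median log2 fold change was 0.46 over 227 tested genes around Efna3, beside 0.00 over all genes tested. Whether the number of copies of this region differs between the lines was not tested.

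**Figure D2:**
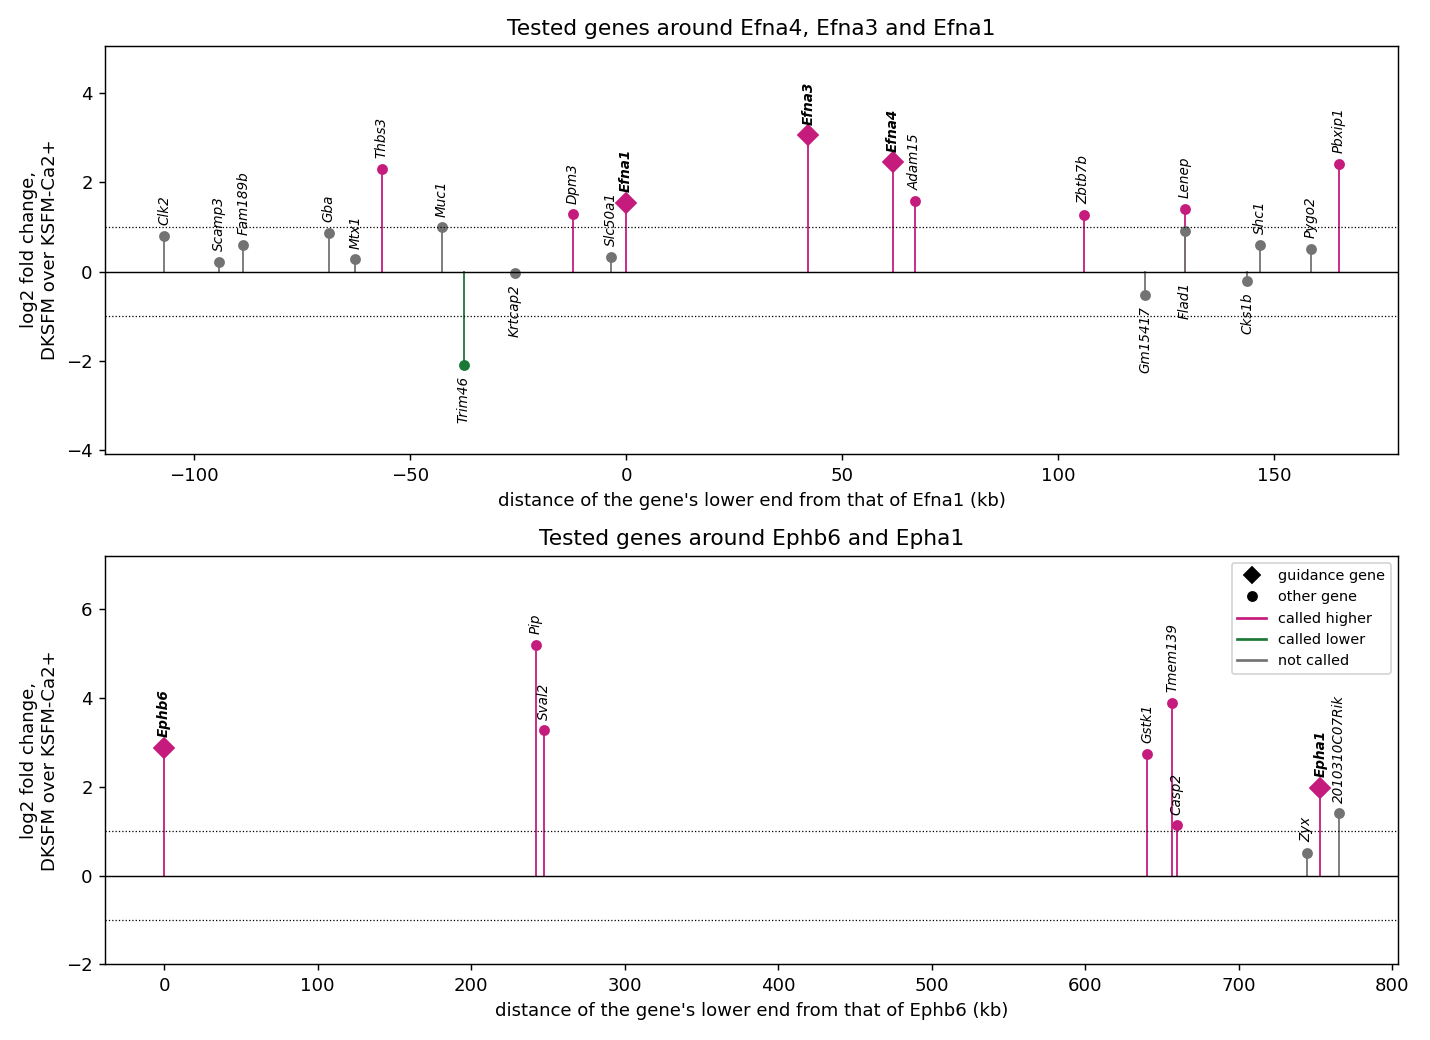
Log2 fold change (DKSFM over KSFM-Ca2+) of each tested gene within 100 kb of the Efna4, Efna3 and Efna1 cluster (upper panel) and of Ephb6 and Epha1 (lower panel), against the distance in kb of the gene's lower end from that of Efna1 or Ephb6. Diamonds are guidance genes, circles other genes, dotted lines mark a 2-fold change, pink is called higher, green called lower and grey not called.

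The A-class ephrins outside this cluster were Efna2 and Efna5. Efna2 was low, at 1.62, 1.20 and 1.31 in KSFM-Ca2+ and 4.39, 4.34 and 4.71 in DKSFM. Its DKSFM libraries all lay above its KSFM-Ca2+ libraries, a 3.26-fold rise (log2 fold change 1.64, adjusted p = 7.7e-06 by limma). Efna5, a ligand of many EphA receptors that also binds Ephb2, was at 49.5, 43.7 and 51 in KSFM-Ca2+ and at 77.1, 70.8 and 78.4 in DKSFM. The lines did not overlap, but the 1.57-fold difference was under the 2-fold threshold (log2 fold change 0.65, 95% confidence interval 0.50 to 0.80, adjusted p = 2.9e-05).

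Of the B-class ephrins, Efnb2 changed most and Efnb1 little. Efnb2, the ligand of Ephb4 in arteries and veins, was at 4.15, 4.29 and 4.41 in KSFM-Ca2+ and at 42.9, 44.5 and 44.1 in DKSFM. It had the largest log2 fold change among the ephrins (3.32 ± 0.05 (SE), adjusted p = 1.3e-09 by limma), a 10.2-fold rise with the libraries of each line close together. Efnb1 was at 62.9, 63.6 and 57.6 in KSFM-Ca2+ and at 73.8, 73.8 and 74.1 in DKSFM. It was the most abundant B-class ephrin of both lines, and its 1.20-fold difference was not called (log2 fold change 0.27). Efnb3 ranged from 0.599 to 0.908 over the 6 libraries, the lines overlapped, and its log2 fold change of 0.24 had an adjusted p of 0.26.

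The Efnb2 stretch is given because this gene rose most among the ephrins, and the Epha1 stretch because it rose most in absolute level among the EphA receptors. Capitals mark GGGCGG and, in a run of their own, GGAATG, on either strand. Both come from RefSeq GRCm38.p6 and the minus strand, Efnb2 at chr8:8661243-8661492 and Epha1 at chr6:42373269-42373518.
Efnb2: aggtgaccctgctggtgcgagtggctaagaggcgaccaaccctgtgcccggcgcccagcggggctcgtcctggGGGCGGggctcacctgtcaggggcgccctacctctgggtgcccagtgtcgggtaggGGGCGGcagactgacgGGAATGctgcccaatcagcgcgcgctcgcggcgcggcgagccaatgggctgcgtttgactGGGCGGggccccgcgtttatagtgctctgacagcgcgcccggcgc
Epha1: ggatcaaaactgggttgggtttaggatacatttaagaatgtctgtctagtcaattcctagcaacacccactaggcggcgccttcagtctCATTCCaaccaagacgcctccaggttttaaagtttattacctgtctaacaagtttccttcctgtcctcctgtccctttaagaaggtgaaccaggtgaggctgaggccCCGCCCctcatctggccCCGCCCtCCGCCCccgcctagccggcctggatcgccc
Each held 3 copies of GGGCGG and 1 copy of GGAATG on either strand.

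The EphA receptors changed places. Normalized coverage of Epha2 was 69.2, 69.1 and 74.0 in the KSFM-Ca2+ libraries and 22.4, 22.7 and 21.9 in the DKSFM libraries. Epha2 was the most abundant Eph receptor of KSFM-Ca2+ cells, and all its DKSFM libraries were far below (log2 fold change -1.66 ± 0.04 (SE), adjusted p = 1.2e-08 by limma). Epha1, a receptor named for its first source in a carcinoma, was at 33.5, 31.8 and 32.3 in KSFM-Ca2+ and at 128, 132 and 127 in DKSFM. It rose 3.96-fold without overlap (log2 fold change 1.98 ± 0.03 (SE), adjusted p = 2.1e-09) and became the most abundant Eph receptor of DKSFM cells. The annotated span of Epha1 overlaps that of Zyx on the opposite strand by 1727 bases, and Zyx differed by a log2 fold change of 0.52 at means of 219.9 and 315. Of the Eph receptor coverage, Epha2 made up 36.2% in KSFM-Ca2+ and 5.30% in DKSFM, and Epha1 made up 16.6% and 30.6%.

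Epha4 and Epha7 rose from lower levels. Epha4, which binds both A-class and B-class ephrins, was at 7.0, 6.99 and 7.27 in KSFM-Ca2+ and at 18.6, 20.6 and 19.2 in DKSFM. Every DKSFM library was above every KSFM-Ca2+ library, by 2.75-fold between the means (log2 fold change 1.44, adjusted p = 1.7e-07 by limma). Epha7 was at 0.154, 0.200 and 0.119 in KSFM-Ca2+, listed there as 0.2, 0.2 and 0.1 before normalization, and at 3.86, 5.14 and 5.24 in DKSFM. The KSFM-Ca2+ values are thus within 2 rounding steps of 0, where a step stands for about 5.59 reads over the median transcript length of Epha7, and the log2 fold change of 4.23 (adjusted p = 3.3e-07) depends on the pseudocount. Epha3, Epha5, Epha6, Epha8 and Epha10 were listed at 0 in all 6 libraries.

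Among the EphB receptors Ephb3 and Ephb6 rose. Ephb6, whose kinase domain lacks catalytic activity, was at 13.0, 11.2 and 9.05 in KSFM-Ca2+ and at 80.7, 80.6 and 82.6 in DKSFM. The rise was 7.34-fold without overlap (log2 fold change 2.88 ± 0.11 (SE), adjusted p = 1.2e-07 by limma). Ephb3, a receptor that positions cells along the intestinal crypt, was at 16.9, 14.8 and 13.8 in KSFM-Ca2+ and at 59.1, 53.5 and 55.5 in DKSFM. It rose 3.69-fold, again with every DKSFM library above every KSFM-Ca2+ library (log2 fold change 1.88, adjusted p = 1.5e-07). Ephb4, the most abundant EphB receptor of both lines, was at 63.2, 58.7 and 52.9 in KSFM-Ca2+ and at 109, 103 and 114 in DKSFM. The lines did not overlap, and its 1.87-fold difference fell short of the 2-fold threshold (log2 fold change 0.90, 95% confidence interval 0.75 to 1.06, adjusted p = 4.5e-06).

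Ephb2 was too low to be tested, at 0.539, 0.699 and 0.476 in KSFM-Ca2+ and at 0.107, 0 and 0 in DKSFM, and Ephb1 was listed at 0 in all 6 libraries. Ephb2 entered the test in the fits without KSFM-Ca2+ replicate 3 or without any single DKSFM library, where 2 libraries at 0.5 are enough, and also with quantile normalization and with no filter, and was then called lower.

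Ephb6 and Epha1 lie on chromosome 6 within 768 kb of each other, Ephb6 at chr6:41605482-41620509 on the plus strand and Epha1 at chr6:42358487-42373268 on the minus strand. Between them and within 100 kb on either side were 7 other tested genes, of which 5 were called higher and 0 lower by limma. Of the 7, Pip, Tmem139 and 2010310C07Rik reached 0.5 in DKSFM libraries alone and so could be called higher only, and Sval2 reached it in 1 KSFM-Ca2+ library, so this count is not set beside that of all genes. Pip and Tmem139 were listed at 0 in all KSFM-Ca2+ libraries and had means of 3.61 and 1.43 in DKSFM, Gstk1 rose from a mean of 3.13 to 21.5, and Casp2 from 8.06 to 17.7. The window of 10 Mb on either side gave a median log2 fold change of 0.14 over 98 tested genes around Epha1. Whether the copy number of this region differs between the lines was not tested.

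Summed over each family, ephrin coverage was 242, 224 and 215 in the KSFM-Ca2+ libraries and 707, 706 and 717 in the DKSFM libraries. Eph receptor coverage was 204, 193 and 189.9 in KSFM-Ca2+ and 422, 418 and 426 in DKSFM. Both sums were higher in every DKSFM library, by a ratio of 3.13 for the ephrins and 2.16 for the Eph receptors. The ratio of ephrin to Eph receptor coverage was 1.19, 1.16 and 1.13 in KSFM-Ca2+ and 1.68, 1.69 and 1.68 in DKSFM. Within the A class the sum of the ligands was 174, 155 and 152 in KSFM-Ca2+ and 589, 587 and 598 in DKSFM, while that of their receptors was 109.9, 108 and 114 in KSFM-Ca2+ and 173, 180.2 and 174 in DKSFM. In the B class the ligands summed to 67.9, 68.5 and 62.8 in KSFM-Ca2+ and 118, 119 and 119 in DKSFM, and the receptors to 93.7, 85.3 and 76.2 in KSFM-Ca2+ and 249, 237 and 252 in DKSFM. The A class thus changed more on the ligand side, by a ratio of 3.68 against 1.59, and the B class more on the receptor side, by 2.89 against 1.79.

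**Figure D3:**
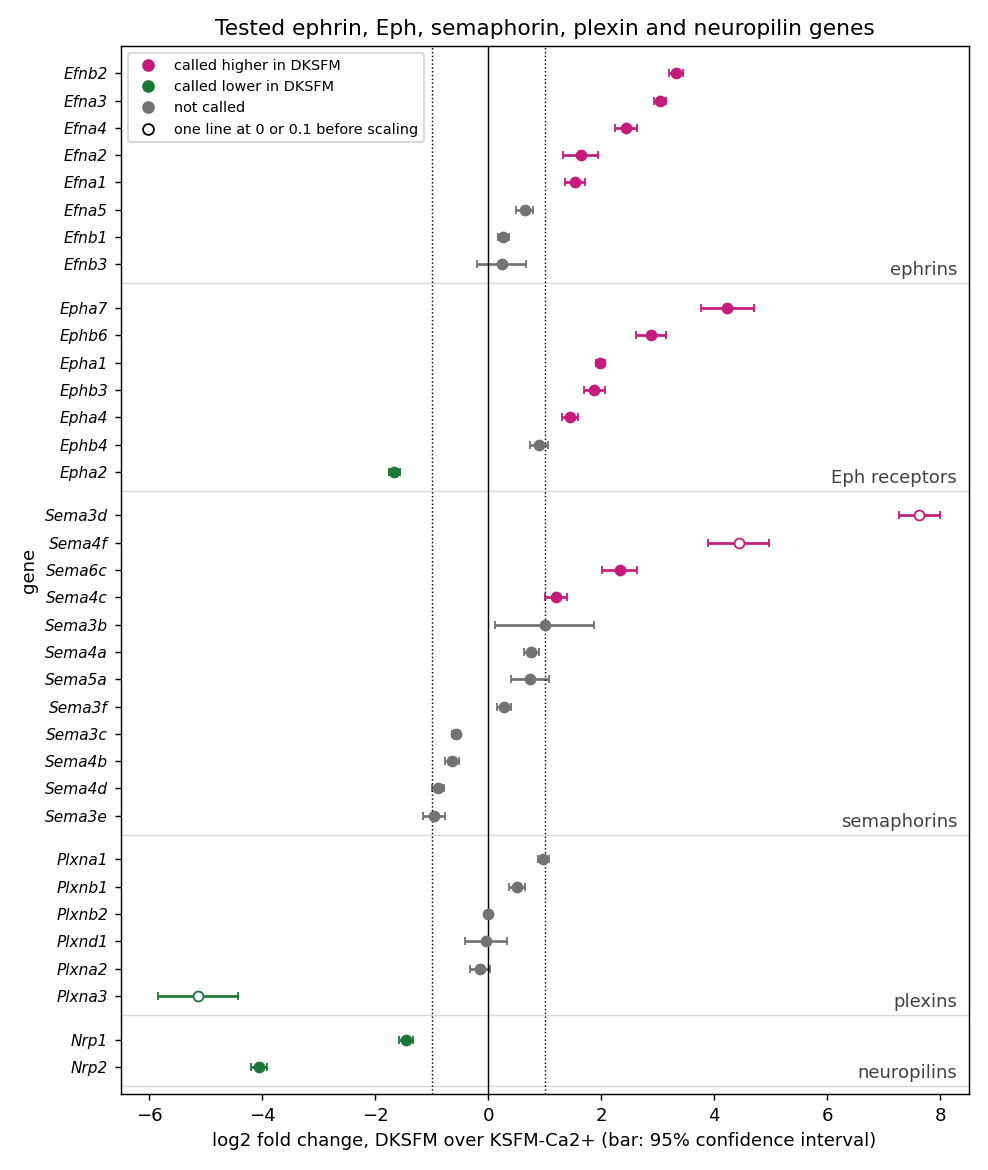
Log2 fold change (DKSFM over KSFM-Ca2+) with its 95% confidence interval for each of the 35 tested guidance genes, by role. Pink points were called higher in DKSFM, green points called lower and grey points not called, dotted lines mark a 2-fold change, and open points are genes with every library of one line at 0 or 0.1 before normalization.

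The secreted class 3 semaphorins held the most abundant semaphorin. Normalized coverage of Sema3c was 224, 218 and 219 in the KSFM-Ca2+ libraries and 151, 143 and 151 in the DKSFM libraries. It was the most abundant semaphorin of both lines, lower in every DKSFM library, with a log2 fold change of -0.57 (95% confidence interval -0.65 to -0.50, adjusted p = 7.6e-07 by limma) that is under the 2-fold threshold. Sema3f, a ligand of Nrp2, was at 93.2, 84.0 and 80.9 in KSFM-Ca2+ and at 101, 104 and 106 in DKSFM. The lines of Sema3f did not overlap, and the difference was 1.21-fold (log2 fold change 0.28, adjusted p = 0.0015). Sema3d was listed at 0 in all KSFM-Ca2+ libraries and was at 19.5, 23.0 and 17.1 in DKSFM (adjusted p = 4.7e-09). Sema3d was thus above 0 in the DKSFM libraries alone, and no fold change is given against a line at 0.

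Sema3e, which binds Plxnd1 without a neuropilin, ranged from 9.16 to 10.4 in KSFM-Ca2+ and from 4.71 to 5.25 in DKSFM, a log2 fold change of -0.95 (adjusted p = 1.1e-05) just short of 2-fold. Sema3b was under 0.5 in KSFM-Ca2+ and at 0.642 to 0.75 in DKSFM, with an adjusted p of 0.038 that misses the threshold. Sema3a and Sema3g were listed at 0 throughout.

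Sema3d, Sema3a, Sema3e and Sema3c lie in this order on the plus strand of chromosome 5, over 5347 kb in which only 3 other genes, counting 100 kb on either side, were tested. Sema3d, at chr5:12383385-12588948, was called higher, Sema3a was listed at 0, and Sema3e and Sema3c were lower without being called. Of the other genes Speer3 and Cacna2d1 were called lower and Cd36 higher. Speer3 reached 0.5 in KSFM-Ca2+ libraries alone and so could be called lower only. The stretch before the RefSeq start of Sema3d is given for the gene that came up from 0, at chr5:12382916-12383165 on the plus strand of GRCm38.p6.
Sema3d: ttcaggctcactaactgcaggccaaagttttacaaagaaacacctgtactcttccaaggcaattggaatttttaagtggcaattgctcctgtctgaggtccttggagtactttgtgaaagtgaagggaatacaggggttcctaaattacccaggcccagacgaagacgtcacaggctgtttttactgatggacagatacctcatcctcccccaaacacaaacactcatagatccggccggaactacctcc
It held 4 CG pairs, under the median of 6 over all promoters, and none of the motifs searched, so that no letter is in capitals.

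Of the class 4 semaphorins, which are membrane-bound ligands of the B plexins among others, Sema4c and Sema4f were called. Sema4c, a ligand of Plxnb2, was at 7.16, 7.79 and 6.43 in KSFM-Ca2+ and at 16.2, 17.5 and 15.9 in DKSFM. All DKSFM libraries lay above, by 2.32-fold between the means (log2 fold change 1.21, adjusted p = 2.7e-06 by limma). When the test was set against a 2-fold change itself, Sema4c had an adjusted p of 0.105 (its highest adjusted p over the other alternatives was 0.00101). Sema4f was listed at 0 in all KSFM-Ca2+ libraries and was at 2.14, 1.82 and 2.25 in DKSFM (adjusted p = 5.6e-07), so no fold change is given. Sema4a ranged from 34.9 to 40.8 in KSFM-Ca2+ and from 62.8 to 66.3 in DKSFM, Sema4b from 31.0 to 35.1 and from 20.5 to 21.8, and Sema4d, a ligand of Plxnb1, from 22.7 to 23.2 and from 12 to 12.5. These 3 did not overlap between the lines but stayed under 2-fold, with log2 fold changes of 0.77, -0.64 and -0.89. Sema4g was listed at 0 in every library.

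In classes 5 to 7 Sema6c was called. Sema6c was at 1.85, 1.70 and 1.31 in KSFM-Ca2+ and at 8.25, 8.27 and 8.88 in DKSFM. It rose 5.23-fold without overlap (log2 fold change 2.33, adjusted p = 9.1e-07 by limma). Sema5a was at 1.07 to 1.38 in KSFM-Ca2+ and 1.93 to 2.22 in DKSFM (log2 fold change 0.74, not called), and Sema5b was listed at 0 throughout. Sema6a, Sema6b, Sema6d and Sema7a were too low to be tested, Sema6a ranging up to 0.504 and Sema6b up to 0.238 over the 6 libraries. Sema6d was at 0.846, 1.20 and 0.238 in KSFM-Ca2+ and listed at 0 in DKSFM, and it was called lower in the fits without KSFM-Ca2+ replicate 3 or without any single DKSFM library, where the filter asked for 2 libraries, and with no filter. Sema7a ranged from 0.308 to 0.476 in KSFM-Ca2+ and from 0 to 0.107 in DKSFM.

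The semaphorin sum hardly differed between the lines. It was 437, 415 and 412 in the KSFM-Ca2+ libraries and 405, 405 and 406 in the DKSFM libraries, a ratio of 0.962. Within it the share of Sema3c went from 52.2% to 36.5% and that of Sema4a from 9.03% to 16.0%.

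Plexin coverage came mostly from a gene whose level was close between the lines. Plxnb2, a receptor of Sema4c and other class 4 semaphorins, was at 306, 299 and 296 in KSFM-Ca2+ and at 296, 300.2 and 308 in DKSFM. The lines overlapped, and the log2 fold change was 0.01 (95% confidence interval -0.06 to 0.07, adjusted p = 0.82 by limma). Plxnb2 made up 84.7% of plexin coverage in KSFM-Ca2+ and 78.0% in DKSFM. Plxna1 was at 32.8, 32.1 and 30.3 in KSFM-Ca2+ and at 61.3, 63.3 and 63.2 in DKSFM. It was higher in every DKSFM library and sat on the threshold, with a log2 fold change of 0.98 (95% confidence interval 0.88 to 1.08, adjusted p = 1.8e-07) that was not called, whereas without KSFM-Ca2+ replicate 1 it was 1.003 and without DKSFM replicate 1 it was 1.005, both called.

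Plxna3 was the plexin that fell. It was at 4.54, 4.69 and 3.81 in KSFM-Ca2+ and at 0, 0.101 and 0 in DKSFM. Against the rounding step its mean was at least 41.4-fold higher in KSFM-Ca2+ (adjusted p = 1.2e-06 by limma). Plxnb1, a receptor of Sema4d, was at 10.8 to 11.9 in KSFM-Ca2+ and 16.1 to 16.8 in DKSFM (log2 fold change 0.51, not called). Plxna2 was at 4.77 to 5.12 in KSFM-Ca2+ and 4.39 to 4.54 in DKSFM (adjusted p = 0.12), and Plxnd1 was at 1.43 to 1.60 in KSFM-Ca2+ and 1.21 to 1.71 in DKSFM, with overlap. Plxna4, Plxnb3 and Plxnc1 were listed at 0 in every library.

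The neuropilins fell together. Normalized coverage of Nrp2 was 172, 186 and 172 in the KSFM-Ca2+ libraries and 9.86, 10.5 and 11.5 in the DKSFM libraries. The KSFM-Ca2+ libraries were all high and the DKSFM libraries all low, a 16.7-fold difference (log2 fold change -4.05 ± 0.06 (SE), adjusted p = 1.1e-09 by limma). Nrp1, a co-receptor for class 3 semaphorins and for vascular endothelial growth factor, was at 56.1, 50.0 and 51.6 in KSFM-Ca2+ and at 19.5, 18.7 and 19.5 in DKSFM. Its libraries did not overlap either, with KSFM-Ca2+ 2.74-fold higher (log2 fold change -1.45 ± 0.05 (SE), adjusted p = 7.5e-08). The span of Nrp1 overlaps that of a listed gene on the same strand, Nrp, at means of 1.32 and 2.28. It also overlaps that of Mir1903 on the same strand, called lower, at means of 3.70 and 0.50 (log2 fold change -3.22). Within 10 Mb on either side the median log2 fold change was -0.56 around Nrp1 (95 tested genes) and -0.55 around Nrp2 (88). It was 0.14 around Epha2 and 0.03 around Plxna3, the other members called lower, and 0.00 over all genes tested. Among the members called higher, the median was -0.28 around Efnb2, -0.29 around Epha4, -0.20 around Sema3d and -0.48 around Sema4c. Around the other members called higher it ran from 0.08 (Epha7) to 0.50 (Sema6c). Whether the copy number of these regions differs between the lines was not tested.

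The Nrp2 stretch is shown as that of the tested guidance gene above 10 in KSFM-Ca2+ that fell most. It is chr1:62703067-62703284 on the plus strand of GRCm38.p6 in RefSeq, with GGGCGG on either strand in capitals, and it ends before the GENCODE start.
Nrp2: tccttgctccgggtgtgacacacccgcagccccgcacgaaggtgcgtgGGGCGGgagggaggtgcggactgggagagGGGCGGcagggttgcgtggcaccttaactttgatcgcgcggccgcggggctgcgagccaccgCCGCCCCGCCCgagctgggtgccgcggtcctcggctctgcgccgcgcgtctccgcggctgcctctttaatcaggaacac
In the 250 bases before its RefSeq start the Nrp2 promoter held 5 copies of GGGCGG on either strand, of which a pair overlap, and 32 CG pairs.

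A promoter was found for 47 of the 53 members, among them all 18 called genes. The motifs searched on both strands in the 250 bases before the start were GGGCGG, the core bound by SP factors, TGANTCA, bound by AP-1, GGAATG, bound by TEAD factors, and TGGGAA, bound by RBPJ, where the last motif can share bases with the TEAD motif. Of the 18 called genes 15 held GGGCGG, as did 36 of the 47 members, beside 33.0% of 32536 promoters. The members' promoters were also rich in CG pairs, with a median of 16 beside 6. TGANTCA was in 1 called gene, Sema4c, beside 6.73% of promoters, GGAATG in 3 (Efnb2, Epha1 and Epha2) beside 12.6%, and TGGGAA in 2 (Epha4 and Epha7) beside 21.6%.

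Neuropilin coverage summed to 228, 236 and 224 in the KSFM-Ca2+ libraries and to 29.4, 29.2 and 30.9 in the DKSFM libraries. Plexin coverage summed to 361, 354 and 347 in KSFM-Ca2+ and to 379.7, 386 and 395 in DKSFM. The ratio of neuropilin to plexin coverage was therefore 0.630, 0.666 and 0.646 in KSFM-Ca2+ and 0.0773, 0.0756 and 0.0784 in DKSFM. Over all members, ligands summed to 679.6, 639 and 628 in KSFM-Ca2+ and to 1112, 1111 and 1123 in DKSFM, and receptors to 793, 783 and 761 in KSFM-Ca2+ and to 831, 833 and 852 in DKSFM. Ligand over receptor coverage was 0.857, 0.816 and 0.825 in KSFM-Ca2+, below 1 in each library, and 1.34, 1.34 and 1.32 in DKSFM, above 1 in each library. Only the pooled sums crossed 1. The ratio of ephrin to Eph receptor coverage was above 1 in every library of both lines. Semaphorin over plexin and neuropilin coverage was 0.743, 0.704 and 0.722 in KSFM-Ca2+ and 0.990, 0.976 and 0.954 in DKSFM. That ratio was thus below 1 in every library of both lines.

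**Figure D4:**
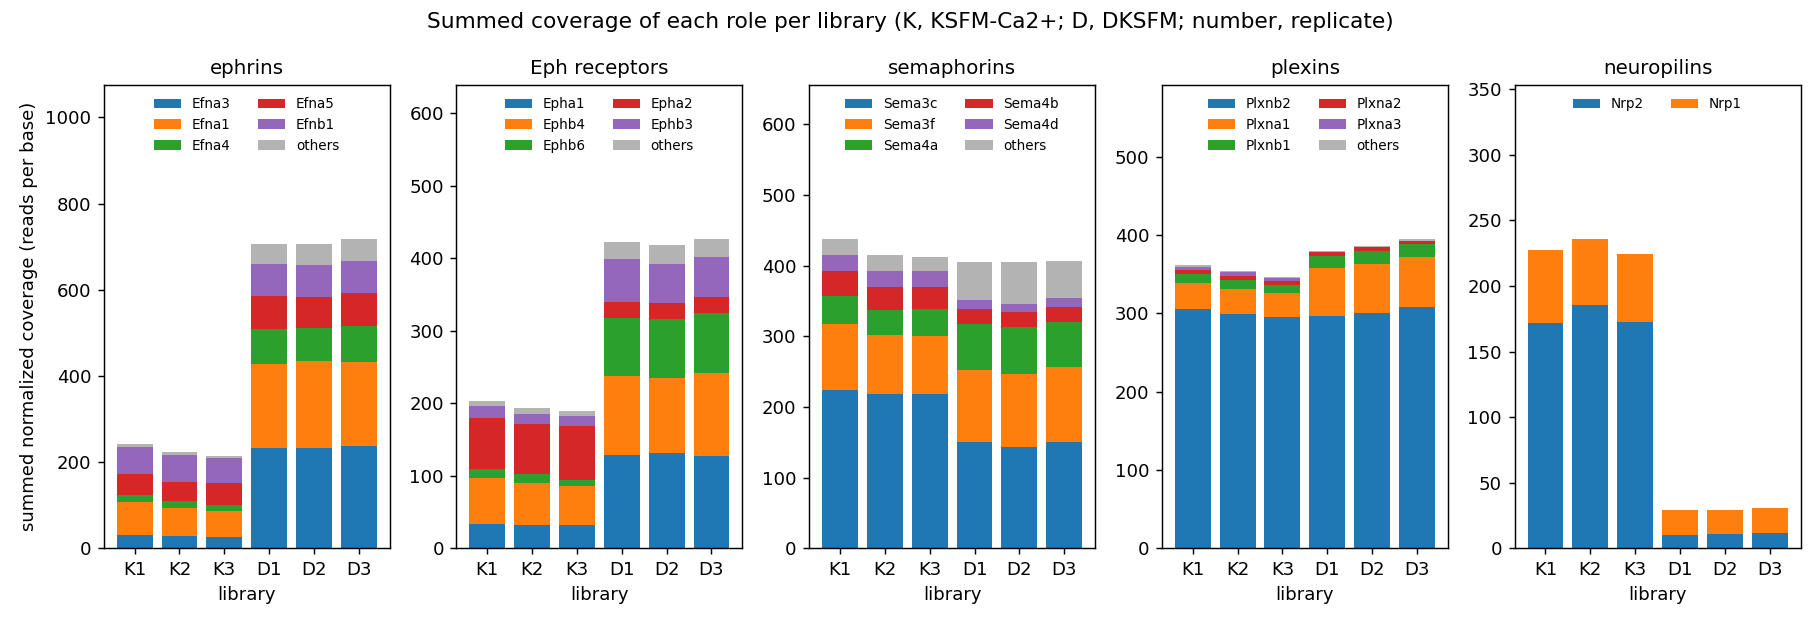
Summed normalized coverage in reads per base of the ephrins, Eph receptors, semaphorins, plexins and neuropilins in each library (K, KSFM-Ca2+, D, DKSFM, with the replicate number), stacked by gene with the 5 most abundant genes of each role in colour. Each panel has its own axis from 0, ephrins and Eph receptors are higher in the 3 DKSFM libraries, the semaphorin and plexin bars are close between the lines, and neuropilins are lower in DKSFM.

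Ligands can be set beside their known receptors. Sema3f, a Nrp2 ligand, was 1.21-fold higher in DKSFM and not called while Nrp2 fell, and Sema3c, which acts through Nrp1 and Nrp2, was lower in DKSFM by less than 2-fold and not called, while both neuropilins were called lower. Efna1 and Epha2 moved against each other, with Efna1 higher and Epha2 lower in every DKSFM library. Efnb2 rose with Ephb3 and Epha4, while its receptor Ephb4 was higher by less than 2-fold. Sema4c rose beside a Plxnb2 level whose log2 fold change lay between -0.06 and 0.07 (95% confidence interval). Sema3e was lower by less than 2-fold beside a low Plxnd1, and for Sema7a, itself near 0, the receptor Plxnc1 was listed at 0. Sema6c rose while the A plexins were mixed, Plxna1 and Plxna2 not called and Plxna3 called lower.

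Signalling partners of ephrins and Eph receptors were described by a list of 37. Of these 31 were tested by limma, 6 were called higher in DKSFM and 4 lower, with a median log2 fold change of -0.20. Vav3, which binds activated Eph receptors, was at 8.92, 9.28 and 8.58 in KSFM-Ca2+ and at 41.7, 45.1 and 42.3 in DKSFM (log2 fold change 2.26, adjusted p = 9.9e-09). The exchange factor gene Arhgef19 was at 3.46, 3.19 and 3.69 in KSFM-Ca2+ and at 13.5, 12.3 and 13.4 in DKSFM (log2 fold change 1.89), and Rgs3, which links ephrin-B to G proteins, at 2.0, 1.80 and 1.67 and at 4.72, 5.75 and 5.35 (log2 fold change 1.48, not called in the test against a 2-fold change, adjusted p = 0.013). In each of these genes all DKSFM libraries were above all KSFM-Ca2+ libraries. In the other direction, Ngef, the exchange factor ephexin that acts beside EphA receptors, was at 6.00, 8.78 and 8.34 in KSFM-Ca2+ and at 1.18, 1.51 and 0.749 in DKSFM (log2 fold change -2.68, adjusted p = 1.7e-05). Chn2, a Rac GTPase-activating protein, was at 6.62, 6.39 and 7.27 in KSFM-Ca2+ and at 0.214, 0 and 0 in DKSFM, and since it reached 0.5 in KSFM-Ca2+ libraries alone it could be called lower only. Arhgef16, an exchange factor that binds Epha2, was at 22.0, 20.9 and 21.6 in KSFM-Ca2+ and at 7.29, 8.37 and 7.81 in DKSFM (log2 fold change -1.45). These 3 genes, chosen as the largest called decreases of the list, were lower in every DKSFM library. The libraries of the lines did not overlap for 96.8% of the list's tested genes, beside 83.2% of all genes tested.

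Genes that act with semaphorins and plexins were described by a list of 40. Of these 30 were tested by limma, 3 were called higher and 4 lower, with a median log2 fold change of -0.12. Limk2, the kinase of the actin-severing protein cofilin, was at 422, 421 and 414 in KSFM-Ca2+ and at 911, 914 and 931 in DKSFM (log2 fold change 1.13, adjusted p = 5.0e-09). Mical3, of a family of oxidases that take apart actin, was at 6.31, 6.99 and 6.07 in KSFM-Ca2+ and at 16.3, 15.8 and 17 in DKSFM (log2 fold change 1.33). Both were higher in every DKSFM library. Itgb1, the integrin beta chain that plexin signals act on, was at 459, 463 and 471 in KSFM-Ca2+ and at 175, 172 and 167 in DKSFM (log2 fold change -1.44, adjusted p = 3.6e-09). Dpysl2, the collapsin response mediator, was at 6.85, 6.79 and 7.98 in KSFM-Ca2+ and at 2.04, 1.71 and 2.46 in DKSFM (log2 fold change -1.76). Farp1, an exchange factor, was at 4.92, 5.39 and 4.88 in KSFM-Ca2+ and at 2.68, 2.22 and 2.03 in DKSFM (log2 fold change -1.11). All 3 were lower in every DKSFM library, and Farp1 was not called with a pseudocount of 0.5 or 1, in the test against a 2-fold change, or with KSFM-Ca2+ replicate 3 alone against the 3 DKSFM libraries. Of the other called genes of the list, Fes (mean 0.204 in KSFM-Ca2+ and 0.878 in DKSFM) and Dpysl5 (0.734 and 0.0693) were under 1 in both lines and reached 0.5 in 1 line alone. The shares of tested genes called higher and lower were 19.4% and 12.9% for the Eph list and 10% and 13.3% for the semaphorin list. Over all genes tested the shares were 13.3% higher and 10.5% lower. Chn2, Fes and Dpysl5 could each be called in 1 direction only, and the genes tested over the whole table include others of that kind.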

How the data were processed

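The authors sequenced directional poly(A) libraries of the 2 lines, used bcl2fastq and STAR with mm10 as the genome, and ran their own DESeq2 comparison. The authors deposited a signal, the mean read coverage per base of each gene to 1 decimal, without scaling to library size, and how it was computed is not given in the sources used here. Some names of the deposited tables, those of KSFM-Ca2+ replicate 3 and all DKSFM replicates, carry the unexplained word combined. Because coverage is not a count, no count model was fitted. Libraries were scaled with the trimmed mean of M values, without weights (trims of 30% and 5%, factors 0.991 to 1.01). R 4.3.3, limma 3.58.1 with an intensity trend, Python 3.11.15 and matplotlib 3.10.9 were used, with Benjamini-Hochberg adjustment over 12450 genes. The procedure was run on simulated data, but no outcome is given here, so no result above rests on it. No 2 libraries held the same values. No interval for counting error is given, since no counts were used.

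Values in every library are given for called members that average at least 1 in either line and for the 2 most abundant members of each role, and from each pathway list for the 3 genes called in each direction that changed most among those at that level. Members and lists were chosen with earlier results of these data known. Neighbours of members and promoter motifs were looked at after the values were seen. Gene positions are from GENCODE M21. Alternatives were other scalings, filters, pseudocounts of 0.5 and 1, no trend, a replicate block, an adjusted p of 0.05, a test against a 2-fold change, each library left out, and the combined libraries only. All 6 libraries were used.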

Additional observations from a re-analysis of the deposited data

How the results depend on the processing

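Under 18 alternatives the 35 tested members and the 16 pathway genes chosen by size of change, without the other pathway genes named, yielded 911 log2 fold changes, of which 890 kept their direction and their side of the threshold, 7 fell out of the calls (Farp1, Rgs3, Robo3 and Sema4c), 7 entered them (Ephb4, Plxna1, Sema3b and Sema3e), and 7 changed sign without a call (Efnb3, Plxnb2 and Plxnd1, all near 0). All 18 calls among the members were shared by every alternative except the filter in every library, which drops Epha7, Plxna3, Sema3d and Sema4f by construction, and the test against a 2-fold change, which lost Sema4c. The fit on the combined libraries only keeps 1 KSFM-Ca2+ library, so that it measures no spread within that line. The count of members called lower was 7 with no filter, where Ephb2, Sema6d and Sema7a were added, and 6 with quantile normalization, where Ephb2 and Sema3e were added, beside 4 (4 to 6 with each library left out, Ephb2 and Sema6d being added). The count of ligands called lower was 0, and it was 1 with quantile normalization (Sema3e), 2 with no filter and 1 with the combined libraries only (Sema3e), and ranged from 0 to 1 with each library left out. Among Eph signalling partners called higher, the test against a 2-fold change gave 3 beside 6. Semaphorin signalling partners called higher numbered 2 or 3 beside 3. Among semaphorin signalling partners called lower, a pseudocount of 1, the test against a 2-fold change and the combined libraries only gave 2 each beside 4, and among netrin and Slit genes called lower, the filter in every library and the test against a 2-fold change gave 1 each beside 2 (2 to 3 with each library left out). Summed plexin coverage had a ratio of 1.12 with quantile normalization beside 1.09, and a range of 1.08 to 1.11 with each library left out. The cause was not tested except where the filter sets it. With the replicate block the counts were 14 higher and 4 lower for the members, 9 and 0 for the ligands, and 5 and 4 for the receptors, as without it. Same-numbered libraries of the lines deviated with correlations of -0.01, 0.02 and -0.02. Such values show no shared deviation but cannot exclude that the numbers pair the libraries, and no pairing is stated.

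The median log2 fold change of all genes was 0.00, 0.01, -0.01 and -0.05 under the 4 scalings. Rounding to 0.1 limits genes near 0, whose fold changes depend on the pseudocount.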

Other observations

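Netrins, Slits and other repulsive guidance genes, a list of 30, were also divided between the lines. In limma's test 14 were tested, of which 6 were called higher in DKSFM (42.9%) and 2 lower (14.3%). Another 11 were listed at 0 in every library, and the median log2 fold change of the tested genes was 0.41. Robo2, Slit1 and Flrt1 passed the filter in 1 line alone, so these shares are not set beside those of all genes. Unc5b, a netrin receptor, was at 0.846, 0.799 and 0.596 in KSFM-Ca2+ and at 38.9, 41.8 and 39.8 in DKSFM (log2 fold change 5.58, adjusted p = 6.0e-09). Rgma, a ligand of neogenin, was at 1.54, 1.5 and 1.19 in KSFM-Ca2+ and at 62.1, 58.0 and 64.1 in DKSFM (log2 fold change 5.36, adjusted p = 2.9e-09). Flrt2, a membrane protein that binds Unc5 receptors, was at 3.31, 3.49 and 3.45 in KSFM-Ca2+ and at 55.8, 53.2 and 54.0 in DKSFM (log2 fold change 3.95, adjusted p = 6.5e-10). These 3 genes were low in every KSFM-Ca2+ library and high in every DKSFM library.

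Ntn4, a netrin of basement membranes, and Robo2 and Slit1 were the other genes called higher, Ntn4 with 9.41 to 10.3 in KSFM-Ca2+ and 24.0 to 25.6 in DKSFM. Robo2 and Slit1 reached 0.5 in DKSFM libraries alone and so could be called higher only, and the reverse holds for Flrt1. Robo3 was at 3.62, 3.09 and 3.57 in KSFM-Ca2+ and at 1.29, 1.11 and 1.18 in DKSFM (log2 fold change -1.45, adjusted p = 1.2e-05, and 0.0241 and not called in the test against a 2-fold change), and Flrt1 was at 1.77, 1.90 and 2.02 in KSFM-Ca2+ and at 0.322, 0.403 and 0.214 in DKSFM (log2 fold change -2.30, adjusted p = 2.1e-05). Both were lower in every DKSFM library. Neo1, the receptor of Rgma, was at 29.0, 27.3 and 25.8 in KSFM-Ca2+ and at 30, 29.5 and 29.4 in DKSFM, without overlap and not called. The netrin genes Ntn3 and Ntn5 and the netrin receptor gene Dcc were listed at 0 throughout.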
